A study of Homo sapiens with 22 samples.

Results

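In TC-32 cells in which FLI1 had been knocked down, 1379 of the 14462 H3K4me3 regions held by both knockdown H3K4me3 peak lists contained an ETS1 region held by both knockdown ETS1 lists, a share of 9.54% (exact Clopper-Pearson 95% interval 9.06 to 10.0). The other 13083 regions, without such an ETS1 region, formed the comparison class and are called regions without ETS1. They include 873 regions that overlapped ETS1 held by 1 list only or at different places in the lists. A region was the union of the peaks of both lists that overlapped by at least 1 bp on chromosomes 1 to 22 and X. These ETS1-holding regions were wider and more strongly enriched for H3K4me3 than the others, lay more often at protein-coding starts, and more often carried H3K27ac. Among regions of like width the difference in H3K4me3 enrichment shrank from 18.2 to 3.51 percentile points, and that in protein-coding starts from 13.6 to -0.473 percentage points, as means over width quintiles. Protein-coding starts were less frequent with ETS1 in the narrower quintiles, which held few ETS1-holding regions, and more frequent in the wider ones. The ETS1 summits lay close to the transcription start site (TSS), while the H3K4me3 summits lay downstream of it.

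The cells, TC-32, are a widely used line grown from an Ewing sarcoma and carry the EWSR1::FLI1 fusion, and every value here comes from this 1 line. The series contains 22 chromatin immunoprecipitation libraries, 8 of them inputs, and 14 peak lists are used here. In the knockdown arm (siFLI1) cells were reverse transfected with 20 nM of an siRNA against FLI1, and in the control arm (siNEG) with 20 nM of a negative-control siRNA. Each arm has 2 lists for ETS1, 2 for H3K4me3, 2 for H3K27ac and 1 for H3K27ac with a second antibody, named ab4729 in the labels. The labels do not say whether the replicates came from separate transfections, so the spread between them may be technical. Peak lists contain no measure of FLI1 itself, so the knockdown could not be checked here, and the read depth behind each list is not known.

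H3K4me3, trimethylation of lysine 4 of histone H3, is laid down by the KMT2 and SETD1 enzymes and marks the nucleosomes around active and poised promoters. ETS1 is a transcription factor of the ETS family, whose members, FLI1 included, bind DNA through a GGAA core, often within the longer CCGGAAGT. A bidirectional promoter drives 2 genes that start close together and run in opposite directions, and such promoters are common among housekeeping genes.

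The H3K4me3 lists held 18344 and 18423 peaks, which merged into 18924 regions, 4462 of them in 1 list only. The ETS1 lists held 1633 and 2635 peaks, which merged into 2682 regions, 1523 of them in both lists. Peak names in the replicate 1 ETS1 list carry the number of replicate 2, so both ETS1 lists together were counted as 1 sample. Whether the lists are crossed or come from 1 library cannot be told apart from the files, so a region held by both may not have been found in separate samples. All 10 Ewing sarcoma marker genes examined, NKX2-2, NR0B1 and CD99 among them, started in an H3K4me3 region, as did 63.2% of all protein-coding genes, whereas none of 11 markers of other lineages, such as PTPRC and MYOD1, did.

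Of the 1523 ETS1 regions, 1435 (94.2%; interval 92.9 to 95.3) overlapped such an H3K4me3 region by at least 1 bp and 88 did not. With at least 50% of the ETS1 region required inside, 1305 H3K4me3 regions held ETS1. Most ETS1-holding regions (1305) contained 1 ETS1 region, 67 contained 2 and 7 contained 3 or more, the highest number being 4. A further 873 H3K4me3 regions overlapped ETS1 that was held by 1 list only or lay at different places in the lists, and 783 of these rested on replicate 2 alone. Without the replicate 1 ETS1 list the number of ETS1-holding regions was 2159, and without the replicate 2 list it was 1466. The weakest members inside the rule were at SOCS2, with ETS1 fold enrichments of 3.11 and 5.93 in the lists, at PCBP1-AS1, with 4.15 and 3.28, and at SLC25A46, with 5.43 and 3.58. The strongest regions just outside, at GNL3L and TRMT10B, had ETS1 folds of 11.4 and 10.2 in the replicate 2 list and no peak in the other.

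The DNA at the strongest ETS1 sites shows how varied these were. The summit of an ETS1 region was taken as the mean position of its summits in both lists. Those list summits were a median of 41 bp apart. The bases within 50 bp of it are therefore not always those around the summit of either list. Among the 10 ETS1-holding regions with the highest ETS1 enrichment, 2 had the 6-letter ETS motif CCGGAA, on either strand, within 50 bp of the summit. These were the sites at the start of the noncoding gene ENSG00000290993 (chr3:129399469-129399498, hg38, minus strand) and of HMGN1, a nucleosome-binding protein (chr21:39349195-39349224, plus strand). The next 4 are further strong sites with the 8-letter motif CCGGAAGT, chosen after their values were seen, at ZNF384, a zinc finger transcription factor (chr12:6689356-6689385, plus strand), SLC25A17, a peroxisomal carrier (chr22:40819377-40819406, minus strand), HSP90B1, a chaperone of the endoplasmic reticulum (chr12:103930040-103930069, plus strand), and CHCT1 (chr17:60392448-60392477, minus strand). Each is given 5′ to 3′ over 30 bases with the motif in capitals.
ENSG00000290993: aaggacccggagCCGGAAGTgcttgccttt
HMGN1: ctcagcccgcgcCCGGAAtaggtgaggcgg
ZNF384: ccttgcactcacCCGGAAGTggtgctgcag
SLC25A17: ccgccccgcgacCCGGAAGTggttctaggg
HSP90B1: gctctctaggatCCGGAAGTagttccgccg
CHCT1: tcctcaagcgccCCGGAAGTcaccaccccc

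By contrast, the bases within 50 bp of the summits of the strongest site, RNF187 (chr1:228487125-228487225), and of KMT2A (chr11:118436284-118436384) contained no GGAA on either strand, and those at CDCA7 (chr2:173354645-173354745) contained 1, at the edge of the window and on the minus strand. All 3 are shown on the plus strand of hg38, with the GGAA core, read there as TTCC, in capitals where present.
RNF187: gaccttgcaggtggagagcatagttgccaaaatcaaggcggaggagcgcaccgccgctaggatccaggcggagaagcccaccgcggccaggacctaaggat
CDCA7: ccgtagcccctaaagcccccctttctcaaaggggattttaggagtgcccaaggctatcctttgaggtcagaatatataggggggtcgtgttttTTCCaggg
KMT2A: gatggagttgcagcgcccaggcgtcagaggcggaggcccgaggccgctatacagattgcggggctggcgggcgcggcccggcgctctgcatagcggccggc

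Across all 1435 ETS1 summits, CCGGAA lay within 50 bp of 154 (10.7%; interval 9.18 to 12.4), compared with 4.25% (3.54 to 5.05) of 2870 windows of the same length placed 500 bp to either side. The longer CCGGAAGT, of which CCGGAA is a part, lay within 50 bp of 44 summits (3.07%) and in 0.314% of the flanking windows. The bare core GGAA was as frequent in both, at 64.5% and 64.0%. The motif was therefore more frequent at the summits than beside them, and absent within 50 bp of most summits. Of the 285 ETS1 regions in the top 20 percentiles of ETS1 enrichment 12.3% (8.70 to 16.7) had CCGGAA, and of the others 10.3% (8.65 to 12.3), intervals that overlap. Summits over 1000 bp from a TSS had it in 2 of 68 cases (2.94%; 0.358 to 10.2), and those within 250 bp in 11.5% (9.78 to 13.5).

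Other promoter motifs also differed between the summits and their flanks. The GC box GGGCGG, bound by SP and KLF factors, lay within 50 bp of 54.6% of summits and in 26.1% of flanking windows, and the CCAAT box, bound by NFY, in 18.1% and 8.78%. The TATA box TATAAA went the other way, at 0.627% and 2.58%. The median GC content was 73.3% in the summit windows and 62.4% in the flanks, and its part in these motif frequencies was not tested.

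The picture at whole promoters was different. In the 300 bp from 250 bp before to 50 bp after the canonical gene start, read from hg38, CCGGAA occurred in 27.7% (25.4 to 30.1) of the 1422 protein-coding genes that start in an ETS1-holding region. In the 10613 genes starting in a region of the comparison class the share was higher, 32.7% (31.8 to 33.6). That class includes regions with ETS1 in 1 list only. Among all 19970 protein-coding genes the share was 22.8%. CCGGAAGT followed the same order, at 8.30%, 9.87% and 6.15%, with intervals for the first and second groups of 6.92 to 9.85 and 9.31 to 10.5. The GC box was more frequent with ETS1 (85.1%) than without (76.4%), and 61.3% of all promoters held it. The CCAAT box occurred in 40.9% and 36.0%, and the NRF1 core GCGCATGC in 3.59% and 6.48%. Median promoter GC content was 69.7% with ETS1 and 66.7% without. Within each quintile of promoter GC content the CCGGAA share was also lower with ETS1. From the most AT-rich to the most GC-rich it was 33.7%, 35.3%, 28.5%, 28.2% and 18.6%, against 35.2%, 41.6%, 35.6%, 29.9% and 20.4%. The quintiles held 178 to 371 genes with ETS1. No intervals were computed for them, so the smaller gaps may be counting error. A match is only a description of the letters, and its absence says nothing of whether the factor was bound.

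The ETS1 summits lay a median of 92 bp from the nearest TSS (quartiles 36 and 183.5 bp). Within 250 bp lay 1178 of the 1435 summits (82.1%), and beyond 1000 bp only 68 (4.74%). More summits were upstream of the TSS (929, 64.7%) than downstream (499), and 7 lay on it. The summits of the H3K4me3 peaks in the same regions had a median position 256 bp downstream of the same TSS in replicate 1 and 248 bp in replicate 2, with 74.2% and 74.4% of them downstream. The ETS1 and H3K4me3 summits were a median of 411 and 412 bp apart in the replicates, whereas the ETS1 summits of both lists were 41 bp apart. The TSS was chosen as the one nearest the ETS1 summit, which favours short ETS1 distances where a region has several. Within the H3K4me3 region they were not always central, since 22.4% of summits fell in the middle quintile of the H3K4me3 region and 29.6% in its outer quintiles (5 equal parts of its length).

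**Figure D1:**
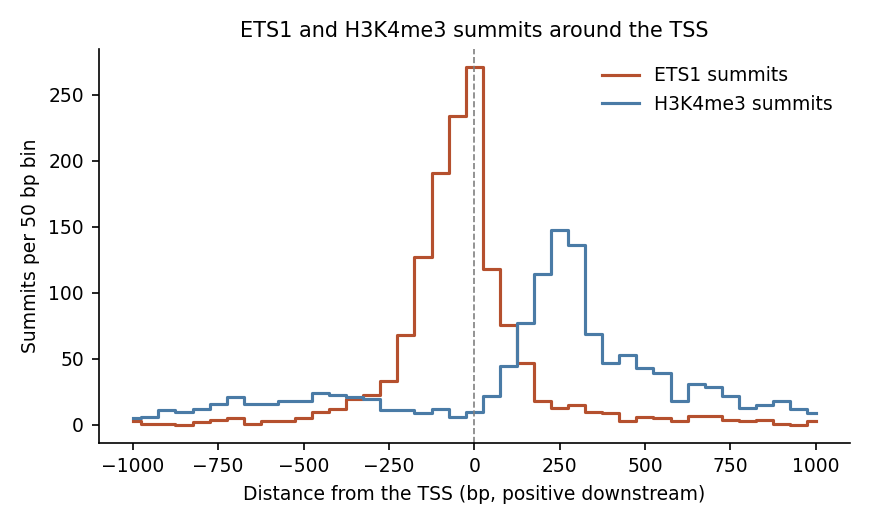
Number of ETS1 summits and of H3K4me3 summits (replicate 1) in ETS1-holding regions, per 50 bp bin, against the distance in bp from the nearest TSS (positive is downstream). The ETS1 count is highest at the TSS, with 271 summits in the bin centred there, where 10 H3K4me3 summits fall, and the H3K4me3 count is highest in the bin centred 250 bp downstream, with 148.

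The downstream position of the mark was not particular to ETS1-holding regions. Among regions with the TSS of 1 gene only, the H3K4me3 summit lay a median of 361 and 347 bp downstream in the replicates where ETS1 was held (n = 473) and 285 bp in both where it was not (n = 4699). In those 473 regions, where the gene's annotated 5′ end was the reference and the ETS1 summit had no part in choosing it, the ETS1 summit lay a median of 184 bp from it and the H3K4me3 summits 368 and 360 bp. The median signed position of the ETS1 summit was there 6 bp downstream. The upstream lean seen with the nearest TSS was thus not present with this reference in these 473 regions. An annotated 5′ end is the outermost start of a gene, so a summit at an inner start counts as downstream of it. Whether the lean depends on the reference or on the set of regions was not tested. The ETS1 summit was the nearer in 380 regions for replicate 1 and in 375 for replicate 2. The ETS1-holding regions reached further on both sides of the gene's 5′ end, 757 bp upstream and 2942 bp downstream at the median, against 536 and 2371 bp.

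ETS1-holding regions were the wider class. Their median width was 4115 bp (quartiles 3046.5 and 5285.5; range 325 to 19004) and that of the others 2784 bp (1376.5 and 3927; range 275 to 20571), a ratio of 1.48 or 0.56 on the log2 scale. The widest single peak of each list inside a region gave 3706 against 2457 bp in replicate 1 and 3783 against 2543 bp in replicate 2, log2 ratios of 0.59 and 0.57. The difference between the classes was far larger than that between the lists, and the classes overlapped over most of their range. Regions with ETS1 in 1 list only fell between, at 3678 bp. Among regions with a protein-coding TSS the medians were 4252 and 3170 bp (log2 ratio 0.42).

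The H3K4me3 signal was also higher. The authors' deposited fold enrichment had medians of 52.5 and 52.3 in the lists for ETS1-holding regions and 34.2 and 34.8 for the others. Expressed as a percentile among all peaks of the same list, the medians were 76.7 against 58.3 in replicate 1 and 76.5 against 58.6 in replicate 2, a difference of 18.2 percentile points (SD 0.351 over the 2 lists). Both lists gave the same direction. With protein-coding starts only the difference was 12.3 points. With regions from 1 H3K4me3 list alone, the log2 width ratio was 1.02 without replicate 1 and 1.03 without replicate 2. The percentile difference was then 28.6 and 28.7 points. Such a set admits regions that the other list lacks and no longer joins peaks over both lists, and the part of each was not tested.

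The share of regions that held ETS1 rose along both scales. From the narrowest to the widest quintile of regions it was 2.14%, 4.53%, 8.47%, 11.6% and 20.9%, and from the lowest to the highest quintile of fold-enrichment percentile 1.59%, 5.36%, 9.57%, 14% and 17.1%. Quintiles are 5 groups of equal number. Since a wide region offers more bases to overlap, the number per length is given as well. Per Mb of H3K4me3-covered sequence the number of ETS1-holding regions was 29.0, 24.8, 29.2, 30.3 and 37.1 across the width quintiles, a much flatter course, and 17.5, 25.7, 29.0, 34.4 and 37.7 across the percentile quintiles. Width and percentile rose together over the 14462 regions (Spearman's rho 0.792, a description). With width held within its quintiles the percentile difference shrank to 3.51 points on average, and with percentile held within its quintiles the log2 width ratio averaged 0.15, from -0.16 in the lowest quintile to 0.25 in the second.

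**Figure D2:**
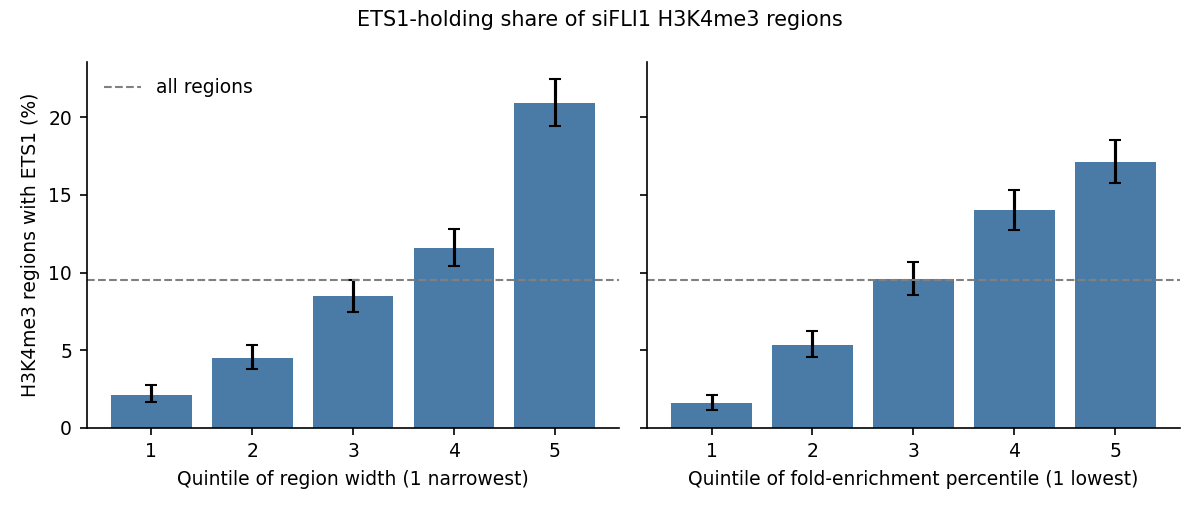
Percentage of H3K4me3 regions that hold ETS1 (bars, with exact 95% intervals) in quintiles of region width (left) and of H3K4me3 fold-enrichment percentile (right); the dashed line is the share over all regions, 9.54%. The share rises at each step, from 2.14% to 20.9% with width and from 1.59% to 17.1% with percentile.

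Among ETS1-holding regions the H3K4me3 region differed little with the strength of the ETS1 peak. From the weakest to the strongest quintile of ETS1 enrichment, the median region width went from 3925 to 4311.5 bp and the median H3K4me3 percentile from 73.5 to 80.5 in replicate 1 and from 74.0 to 79.4 in replicate 2. Over the 1379 regions, ETS1 percentile and H3K4me3 percentile had a Spearman's rho of 0.101, and ETS1 percentile and width one of 0.069, both descriptions.

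The strongest ETS1 sites illustrate this. RNF187, an E3 ubiquitin ligase gene, had ETS1 folds of 53.1 and 76.1, the highest in both lists, in a 5050 bp region (chr1:228485225-228490274) whose H3K4me3 was near the middle, at percentiles 55.9 and 57.5. Its summit lay at -207 bp from the TSS, in sequence annotated as intergenic. CDCA7 had ETS1 folds of 29.2 and 63.1 and H3K4me3 percentiles of 65.5 and 51.6. KMT2A, itself a histone H3 lysine 4 methyltransferase, had ETS1 folds of 25.7 and 33.7 in a 5139 bp region (chr11:118434597-118439735), with the summit at -122 bp from the nearest TSS, inside an annotated intron. SP2, a zinc finger factor of the SP family, had folds of 23 and 31, and RPL32, a protein of the large ribosomal subunit, 22.1 and 36.4. The H3K4me3 percentiles at RPL32 were 99.6 and 92.1. Among these named sites H3K4me3 thus ranged from the middle of the lists to their top.

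The widest ETS1-holding region, 19004 bp, lay at MIRLET7BHG, the host gene of let-7 microRNAs (chr22:46068349-46087352). It was followed by the regions of NFIB, a nuclear factor I transcription factor (16282 bp), POU3F2, a neural POU-domain factor (14707 bp), ZBTB22 (13884 bp) and NEAT1, the paraspeckle RNA (13839 bp). Their ETS1 folds were ordinary, between 5.39 and 8.56, against medians of 6.38 and 7.91 over the ETS1 regions that overlapped H3K4me3. The 5 narrowest ETS1-holding regions measured 325 to 371 bp, 4 of them had no TSS inside, and 4 lay on chromosome 19. Some wide or strong H3K4me3 regions had no ETS1 peak. The region of TBX5, a T-box factor, at 20571 bp the widest in either class, and those of OTX2 (14561 bp) and LMO3 (14115 bp) held none in either list. Nor did the strongest H3K4me3 regions without it, at CITED2, NORAD, IREB2, PFDN1 and SNHG5, whose percentiles were 99.6 to 99.9 in both lists.

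ETS1-holding regions lay mostly at protein-coding starts. A protein-coding TSS was present in 93.1% of them (91.6 to 94.4) and in 79.5% (78.8 to 80.2) of the others, a difference of 13.6 percentage points. A long noncoding RNA start without a protein-coding one was present in 2.83% and 5.02%, and no TSS in 3.77% (52 regions) and 14.9%. This difference followed width. In the quintiles from narrowest to widest a protein-coding TSS was present in 32.3%, 75.6%, 96.7%, 97.6% and 99.2% of ETS1-holding regions and in 35.8%, 79.3%, 94.2%, 96.8% and 97.6% of the others, a difference of -0.473 points when each quintile counts equally. The share with ETS1 was lower in the 2 narrowest quintiles, which held 62 and 131 ETS1-holding regions, and higher in the 3 widest, which held 245, 335 and 606. With 1 H3K4me3 list alone the difference was 28.8 and 29.1 points.

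Bidirectional promoters were counted as pairs of protein-coding or long noncoding RNA genes that start on opposite strands, facing away from each other, within 1000 bp, with at least 1 start in the region. They were present at 267 of the 1379 ETS1-holding regions (19.4%; 17.3 to 21.5) and at 1727 of the others (13.2%; 12.6 to 13.8). Pairs of 2 protein-coding genes made up 96 (6.96%) and 682 (5.21%). Regions with ETS1 in 1 list only had divergent pairs at the same share, 19.4% (16.8 to 22.1), and those with ETS1 in neither list at 12.8%. Starts of 2 or more genes were present in 48.7% and 31.5%. Among regions with a protein-coding TSS the shares of divergent pairs were 19.9% and 15.8%. The difference between the classes, 6.16 percentage points, was 14.2 when the starts of all transcripts were counted, 1.75 for pairs of protein-coding genes, and 9.28 without H3K4me3 replicate 2.

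Divergent pairs also followed width. In the narrowest quintile they were at 6.45% of ETS1-holding regions and 3.5% of the others, then at 9.92% and 8.33%, 12.2% and 10.7%, and 17% and 16.4%, and in the widest quintile at 26.9% (23.4 to 30.6) and 30.4% (28.6 to 32.4). The average difference within width quintiles was 0.640 percentage points, against 6.16 over all widths, and the intervals overlapped in every quintile. Within percentile quintiles the average was 2.27 points.

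**Figure D3:**
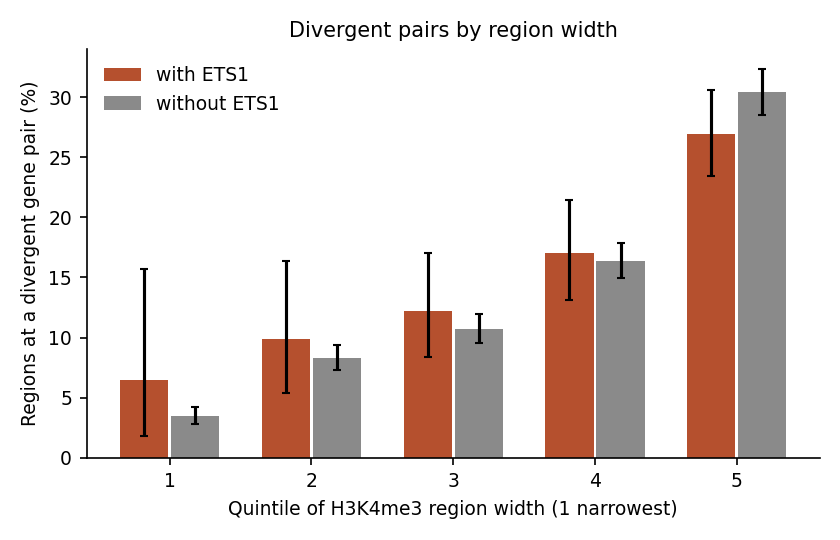
Percentage of H3K4me3 regions at a divergent gene pair (bars, with exact 95% intervals) in quintiles of region width, for regions with ETS1 in both lists and for all others. The share rises with width in both classes, and the intervals of the classes overlap in each quintile, with 26.9% and 30.4% in the widest.

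The divergent protein-coding pair with the strongest ETS1 was PREPL, a prolyl endopeptidase-like enzyme, with CAMKMT, the calmodulin lysine methyltransferase, whose starts are 85 bp apart (chr2:44359162-44363987). ETS1 folds were 23 and 41.5 and the summit lay in an annotated UTR, 1 bp from the CAMKMT start. WASF1, an actin regulator, and CDC40, a splicing factor, start 137 bp apart, with ETS1 folds of 21.6 and 40.0 in a region of 12844 bp. RRP12, a ribosome biogenesis factor, and PGAM1, a glycolytic mutase, start 115 bp apart, with folds of 12.8 and 19.2. PMEL with RAB5B, an early endosome GTPase (596 bp apart, folds 13.4 and 20.0), and NOSIP with PRR12 (920 bp apart, folds 13.8 and 16.3) had wider spacing. The region at PMEL held the PMEL start only, and the ETS1 summit lay just outside that region, nearer the RAB5B start. The ETS-family gene GABPA and ATP5PF, an ATP synthase subunit, share 1 such region, with ETS1 folds of 10.9 and 13.0 and H3K4me3 percentiles of 99.8 and 99.6.

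By gene, 12629 of 19970 protein-coding genes had a TSS in an H3K4me3 region held by both lists, and 1563 of these (12.4%; 11.8 to 13.0) had one in an ETS1-holding region. The gene-level share rose from 3.6% in the lowest quintile of H3K4me3 percentile to 19.2% in the highest. Because lists of genes differ in their H3K4me3, each of the 20 gene lists is given beside the share of all genes spread over the same percentile quintiles. Region width, with which the ETS1 share also rose, was not matched. Median widths were 4595 bp for chromatin remodellers and histone methylation enzymes and 4681 bp for cytosolic ribosomal proteins, against 3529 bp over all genes with H3K4me3. These shares are descriptions, and nothing was tested over the lists.

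The list with the highest share was that of chromatin remodellers and histone methylation enzymes, of which 14 of 38 genes with H3K4me3 (36.8%; 21.8 to 54.0) held ETS1, against 15.4% of genes at the same quintiles. The members were KMT2A and KMT2D, which encode H3K4 methyltransferases, their family member KMT2E, the H4K20 methyltransferase gene KMT5B, the demethylase genes KDM2B, KDM3A, KDM4B, KDM5A, KDM5B, KDM6A and KDM6B, and the remodelling ATPase genes SMARCA1, SMARCA2 and SMARCA4. ETS1 folds were 12.8 and 14.3 at KMT2E, whose region spans 10088 bp, 11.4 and 16.3 at SMARCA2, and 10.3 and 12.6 at KDM4B. At KDM4B the ETS1 summit lay just outside the H3K4me3 region. A further 9 members (23.7%), ARID1A and KMT2B among them, had ETS1 in 1 list only, compared with 7.41% of all genes with H3K4me3. Writers of H3K4 methylation (KMT2A and KMT2D) and erasers of it (the KDM5 genes) were both present.

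Homeobox and other lineage transcription factors held ETS1 at 20 of 89 genes (22.5%; 14.3 to 32.6), in 19 regions, against 9.61% at the same quintiles. Examples were FOXJ3 (folds 11.6 and 13.9), IRX5 (9.20 and 14.7), FOXO6 (8.82 and 15.4) and HOXC4 (8.41 and 8.84), and several HOXB and HOXC genes were members. Of the ETS family, 4 of 17 genes with H3K4me3 held ETS1 (23.5%; 6.81 to 49.9, against 11.4%), namely GABPA, ERF (folds 10.3 and 13.4), ELF2 (5.94 and 7.34) and ETV3 (4.44 and 6.24). In these 3 lists the share was above that at the same quintiles, and for the ETS family the interval included it. The quintiles are of percentile alone. Homeobox and other lineage genes had a median region width of 4237 bp and a median percentile of 56.8. Over all genes with H3K4me3 these were 3529 bp and 72.3. The part of width in these shares was not tested.

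Cytosolic ribosomal protein genes, at a median H3K4me3 percentile of 93.8, held ETS1 at 7 of 79 (8.86%; 3.64 to 17.4), against 18.3% at the same quintiles, with RPL32 and RPL6 (folds 12.9 and 18.3) the strongest. Respiratory chain and ATP synthase genes held it at 4 of 79 (5.06%; 1.40 to 12.5, against 17.1%), mitochondrial ribosomal proteins at 6 of 76 (7.89%, against 15.5%), proteasome subunits at 3 of 37 (8.11%, against 16.1%), aminoacyl-tRNA synthetases at 2 of 37 (5.41%, against 15.0%) and DNA repair genes at 2 of 48 (4.17%, against 13.0%). Mediator subunits, at 2 of 30 (6.67%, against 16.2%), had MED13L (folds 13.1 and 20.8) and MED19 as members. RNA polymerase subunits, at 3 of 29 (10.3%, against 15.0%), included POLR2A, the largest subunit of RNA polymerase II. With ETS1 in both lists, for the cytosolic ribosomal and respiratory lists the interval lay below the share at the same quintiles, and for proteasome and Mediator subunits, synthetases, RNA polymerase subunits, DNA repair genes and mitochondrial ribosomal proteins it included it. With ETS1 in either list, held by 19.8% of all genes, the cytosolic ribosomal count was 15 of 79 (19.0%; 11 to 29.4, against 27.3% at the same quintiles), an interval that includes the latter, and the proteasome count 9 of 37 (24.3%, against 24.8%). The respiratory count was then 10 of 79 (12.7%; 6.24 to 22, against 26.0%) and the mitochondrial ribosomal count 10 of 76 (13.2%; 6.49 to 22.9, against 24.3%), both with intervals below the share at the same quintiles. These either-list counts were chosen after seeing the data.

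Splicing factors (9 of 58, 15.5%), translation factors (9 of 61, 14.8%) and replication and cell cycle genes (11 of 78, 14.1%) were close to the shares at their quintiles, 16.4%, 16.1% and 13.0%. The lists were drawn by gene symbol, so the translation members include EIF2AK3, the stress kinase PERK, and the cell cycle members CDC37, a chaperone partner, and CDC40, the splicing factor. EIF4G3, a translation initiation scaffold, had ETS1 folds of 9.56 and 15.0, and MCM7, a subunit of the replicative helicase, 8.12 and 11.4. ZNF zinc finger genes held ETS1 at 42 of 455 (9.23%; 6.73 to 12.3, against 12.5%), led by ZNF384 (folds 16.0 and 21.6) and ZNF687 (11.9 and 15.5). None of the 49 replication-dependent histone genes with H3K4me3 held ETS1 (interval up to 7.25%, against 9.63%). Collagens, integrins and cadherins held it at 4 of 39 (10.3%, against 5.94%), with ITGA5 (folds 10.0 and 11) and CDH11 as members, and ion channels at 2 of 37 (5.41%, against 5.27%).

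None of the 12 genes known to be activated by the fusion and none of the 10 known to be repressed by it held ETS1 in both lists, although all 22 had H3K4me3 regions. The shares of all genes at the same quintiles were 12.2% and 11.6%, and with so few genes these zeros allow shares of up to 26.5% and 30.8%. BCL11B, CCND1 and NKX2-2 of the activated genes and CCN2 of the repressed had ETS1 in 1 list only, beside the 7.41% of all genes. With ETS1 in either list the shares were thus 25% (5.49 to 57.2, against 19.7% at the same quintiles) and 10.0% (0.253 to 44.5, against 19.4%).

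**Figure D4:**
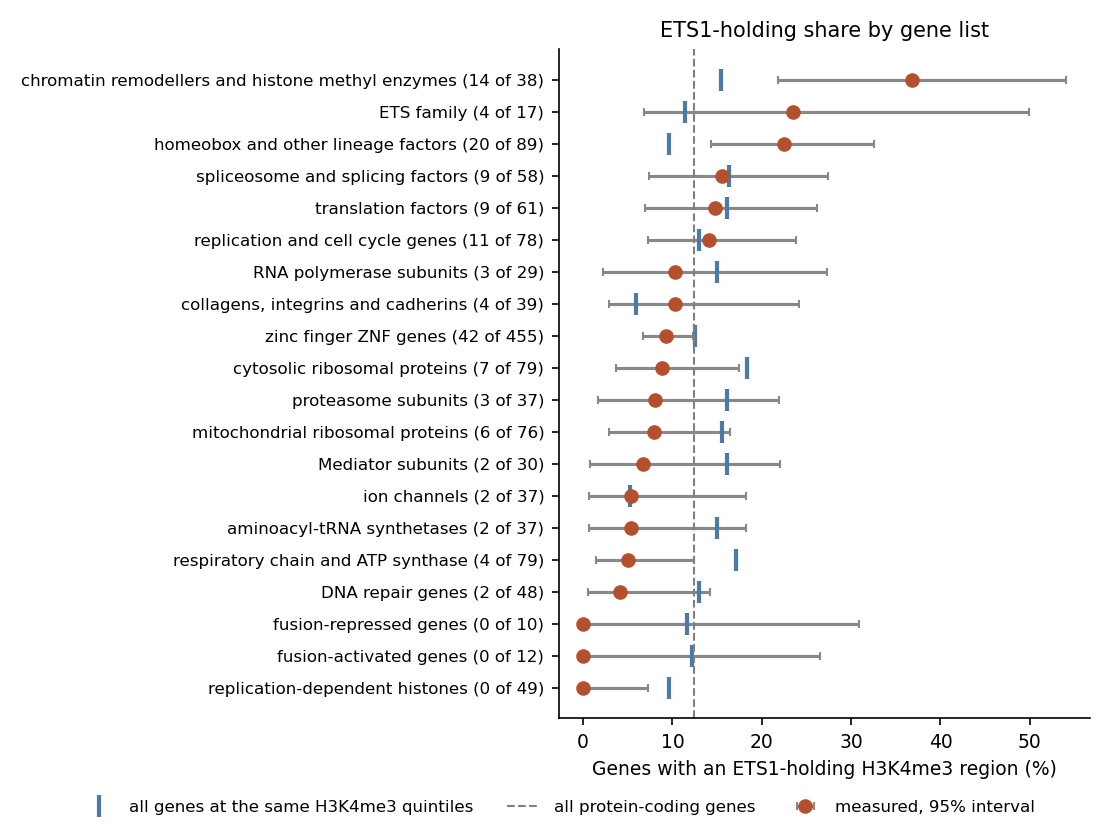
Percentage of the genes with H3K4me3 in each of 20 lists that start in an ETS1-holding region (points, with exact 95% intervals; counts in brackets), with the share of all protein-coding genes at the same H3K4me3 percentile quintiles (blue marks) and the share over all genes, 12.4% (dashed line). Chromatin genes are highest at 36.8% and histone genes lowest at 0 of 49.

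The ETS1-holding share also varied by chromosome, from 2.62% of H3K4me3 regions on chromosome 4, 3.82% on 13 and 4.19% on 3 to 13.3% on 1, 13.4% on 19 and 14.1% on 17. Median GC content of the regions was 54.1% with ETS1 and 52.4% without, and its part in these shares was not tested.

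H3K27ac, an acetylation mark of active promoters and enhancers, was not used to choose the regions. It overlapped 92.0% and 91.7% of ETS1-holding regions in the siFLI1 lists and 68.4% and 66.8% of the others, a difference of 24.3 percentage points (SD 0.941, n = 2 lists). In the siNEG lists the shares were 90.9% and 87.2% against 66.3% and 61.1%, a difference of 25.3 points (SD 1.07, n = 2). With the antibody named ab4729, 1 list per arm, they were 90.6% against 60.7% in siFLI1 and 84.0% against 53.2% in siNEG. All 6 lists thus gave a higher share with ETS1, by 23.6 to 30.9 points. Part of the difference went with H3K4me3 strength, for within percentile quintiles it averaged 15.4 points over the siFLI1 lists. From the lowest to the highest quintile, H3K27ac was in both siFLI1 lists at 67.4%, 60.6%, 84.8%, 97.0% and 99.0% of ETS1-holding regions and at 24.9%, 44%, 73.2%, 91.4% and 97.3% of the others. The gap was widest among weak H3K4me3 regions, where only 46 held ETS1.

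**Figure D5:**
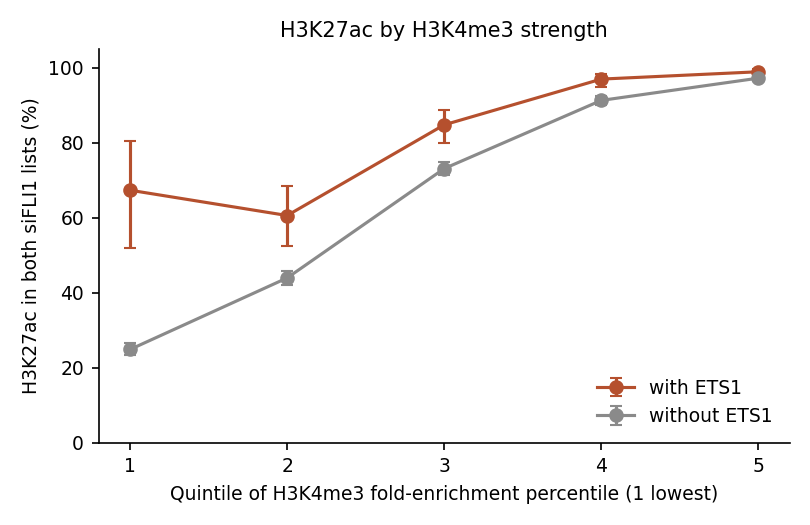
Percentage of H3K4me3 regions with H3K27ac in both siFLI1 lists, in quintiles of H3K4me3 fold-enrichment percentile, with exact 95% intervals, for regions with ETS1 in both ETS1 lists and for all others. The classes are 67.4% and 24.9% in the lowest quintile and 99.0% and 97.3% in the highest.

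In the control arm the same regions already carried H3K4me3. Of the 1379 ETS1-holding regions 1374 (99.6%) were in both siNEG H3K4me3 lists and 2 in neither, whereas of the 13083 others 93.2% were in both and 447 (3.42%) in neither. ETS1 itself was listed far less often there. The siNEG ETS1 lists, with 302 and 208 peaks, covered 118 of the ETS1-holding regions (8.56%) in both lists, 192 in 1 list and 1069 (77.5%) in neither. The ETS1-holding regions listed in siNEG were mainly the strongest ones, since from the weakest to the strongest quintile of siFLI1 ETS1 enrichment 6.91%, 7.61%, 11.6%, 24.6% and 61.6% overlapped a siNEG ETS1 peak, and all 10 of the top sites were in both siNEG lists. A shorter list can come from lower enrichment or depth as well as from fewer bound sites, and fewer cells with ETS1 at a site or less of it per cell would look alike, so these cannot be told apart from peak lists.

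The excess of H3K4me3 at ETS1-holding regions was present in both arms. Over the regions in all 4 H3K4me3 lists (1374 with ETS1 and 12190 without), the median percentile was higher with ETS1 by 15.9 and 15.4 points in the siFLI1 lists and by 13.6 and 12.8 points in the siNEG lists. The means were 15.6 (SD 0.397, n = 2) and 13.2 (SD 0.571, n = 2). The difference between the arms was 2.45 points, and the siFLI1 and siNEG values did not overlap. However, the regions and both classes were set from siFLI1 lists alone, so the arms were not on an equal footing. The siNEG percentiles were also higher, at medians of 64.0 and 65.6 without ETS1, against 61.1 and 61.3 in siFLI1. With ETS1 they were 77.6 and 78.4, against 77.0 and 76.6. The part of this choice and of the percentile scale in the difference was not tested. An exact permutation test over the 4 lists gave p = 0.33, two-sided, which is the smallest value that 2 against 2 lists allow, so this test could not have reached 0.05 whatever the difference.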

How the data were processed

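ETS1, H3K4me3 and H3K27ac were measured by chromatin immunoprecipitation and sequencing in TC-32 cells. The deposited files used here are 14 peak lists, each under 1 sample label. For the siFLI1 ETS1 lists it is not known whether they come from separate libraries. The submitters' processing notes name cutadapt 4.4, BWA 0.7.17, Picard 2.17.11 and MACS2 2.1.1, and the builds GRCh38, hg38 and dm6. They give no role or order here, and the control used in peak calling and the call settings are not given in the sources used here. All peaks fit hg38 chromosome lengths. In the lists the authors deposited a fold ratio per peak (column 7), a −log10 q-value and a score, each peak's own value.

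Peaks of both lists that overlapped by at least 1 bp were merged, and regions with a peak of both lists were kept. Fold was turned into a percentile within each list, and a region took its highest. The summit of an ETS1 region was the mean of its summits in both lists. Genes and TSSs came from GENCODE 44. Motifs were searched on both strands in hg38. Shares have exact Clopper-Pearson 95% intervals, which treat regions as independent and cover counting error only. The classes come from the same libraries, so no test was run between them, and only the arms were compared by a test. The overlap and pairing steps were tested on simulated data. Python 3.11.15, pandas 2.3.3, numpy 2.4.6, scipy 1.17.1 and pysam 0.24.0 were used.

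Named regions were the 10 with the highest ETS1 percentile, the 5 widest and narrowest with ETS1, the 5 widest and strongest without, up to 4 per gene list by ETS1 percentile, and the 5 divergent protein-coding pairs with the highest ETS1 percentile. Gene lists that name every member are exceptions, and some named regions are not reported here. Sequences of all bases within 50 bp of the summit had been planned for the named sites with CCGGAA, but windows touching an exon were cut to 30 bases, and only 2 of 13 searched sites had the motif, so other sequences were added after values were seen. Members and gene lists were chosen with earlier results of these data known. Alternatives varied the overlap, the q-value, joining, the starts counted, the motif and each list left out. Inputs were not analysed here.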

Additional observations from a re-analysis of the deposited data

How the results depend on the processing

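Of 74 alternative values for 8 results, 37 stayed close to the reported value (within 1 SD over both lists for width, percentile and H3K27ac, within the 95% interval for the divergent, protein-coding and motif shares, within 1.5 times for the count, and in direction alone for the arms), 36 moved in the same direction, and 1 reversed, the protein-coding share difference averaged over width quintiles (-0.473 points; lower with ETS1 in the 2 narrowest only). There the percentile difference was 3.51 points and that of divergent pairs 0.640. The log2 width ratio was 0.54 with ETS1 in either list (2252 regions), 0.60 with at least 50% of the ETS1 region inside, 0.46 with H3K4me3 at a −log10 q of at least 10, 0.51 with peaks within 1 kb joined, 0.42 with protein-coding starts and 0.60 against regions with ETS1 in neither list. The percentile difference was 18.9, 14.5, 16.0, 12.3 and 19.4 points from the second to the last of these. The protein-coding difference was 15.1 with 50% inside, 8.44 at the stricter q, 9.47 with peaks joined and 11.5 with starts within 1 kb counted. The divergent difference was 4.04 with protein-coding starts, 1.75 with both genes protein-coding and 14.2 with the starts of all transcripts. The H3K27ac difference was 29.9 with ab4729 and 15.4 within percentile quintiles. The motif difference was 2.75 for CCGGAAGT, 10.4 within 100 bp and 0.418 for GGAA. Leaving out 1 list gave 1396 to 2159 regions, log2 width ratios of 0.54 to 1.03, percentile differences of 17.9 to 28.7, protein-coding differences of 13.7 to 29.1, divergent differences of 6.29 to 9.28, H3K27ac differences of 23.6 to 24.9 and an arm difference of 2.05 to 2.85. The highest of these, apart from the counts, H3K27ac and the arms, came from leaving out an H3K4me3 list, and 2159 from leaving out ETS1 replicate 1, the shorter list. Leaving out an H3K4me3 list by construction admits regions of 1 list and no longer joins peaks over both lists. The part of each, and the cause of the other changes, were not tested. The comparison with regions with ETS1 in neither list and the quintile values for protein-coding starts and H3K27ac were chosen after seeing the data, as were the arm values with a list left out and with the replicate block. With the replicate number as a block the arm difference was 2.33 and 2.57 points within the numbers, 2.45 on average (p = 0.50 in a two-sided exact sign-flip test, which can give no smaller value), although no label ties a number to a shared culture. The other results come from no test between groups. Depth is not known, so a region absent from a list may be below its threshold.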

Other observations

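Across the quintiles of promoter GC content, from the most AT-rich to the most GC-rich, 7.4%, 10.3%, 11.5%, 14.4% and 15.4% of the protein-coding genes starting in an H3K4me3 region started in an ETS1-holding one. Within H3K4me3 regions the CpG density was a median of 44.3 per kb with ETS1 and 40.5 per kb without.

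At the ETS1 summits other motifs were less frequent or less different from the flanks. The CRE core TGACGT lay within 50 bp of 3.83% of summits and in 1.81% of flanking windows, the E-box CACGTG in 3.55% and 2.06%, the YY1 core AAGATGG in 1.60% and 1.57% and the NRF1 core GCGCATGC in 0.627% and 0.279%.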
